A study of Mus musculus with 4 samples.

Results

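Ciliated cells of the mouse trachea were examined in 4 single-cell RNA libraries that separate graft-derived from host cells. They were taken as every barcode with at least 500 genes in which Foxj1, Ccdc153, Dynlrb2 and Fam183b together made up at least 20 of every 10,000 UMIs (unique molecular identifiers, 1 for each captured RNA molecule). By that rule 982 of 6784 barcodes were ciliated, or 14.5%. The rule read the RNA itself, so a high level of these genes in the chosen cells is a description and supports nothing.

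Multiciliated cells carry motile cilia on their apical surface that beat together and move mucus out of the airway. Each cilium is built on an axoneme of microtubule doublets around a central pair, with outer and inner dynein arms as motors, radial spokes, and a nexin-dynein regulatory complex linking the doublets. Foxj1 and the RFX factors switch on the genes of this structure, and basal cells are the stem cells from which secretory and ciliated cells of the trachea arise.

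In the iBC recipient, donor-derived cells were sorted as Calcein Blue+/GFP+ 192 days after ESC-derived basal cells (iBC) had been given, and the endogenous cells of that trachea as Calcein Blue+/GFP- on the same day. The strain is given as 129 X1/S1 for both libraries. The donor-derived cells of the primary basal cell (BC) recipient were sorted as Calcein Blue+/GFP+ at 69 days, and its endogenous cells as Calcein Blue+/GFP-, with the strain given as C57BL/6. All 4 groups came from wild type adult recipients whose airway had been injured with 2% polidocanol, a detergent, 5 hours before 6000000 cells were instilled. Each group is 1 library and each recipient is 1 source of cells, so no difference here has a replicate check, no p-value is given, and all intervals are exact 95% intervals that cover counting error only. The kind of donor cell, the days after transplantation, the strain and the animal differ together between the recipients and cannot be told apart. The age and number of the animals are not given in the sources used here, and an uninjured trachea was not analysed here.

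Ciliated cells made up 16.5% of iBC-derived cells (264 of 1596, exact interval 14.8 to 18.5%) and 18.2% of the endogenous cells of that trachea (345 of 1891, 16.5 to 20.1%). In the primary BC recipient they made up 8.90% of the donor-derived cells (167 of 1876, 7.65 to 10.3%) and 14.5% of the endogenous cells (206 of 1421, 12.7 to 16.4%). The interval of the primary BC-derived share lay below that of its endogenous cells, whereas the intervals overlapped in the iBC recipient. Cells pass digestion and a sort at rates that may differ between types, so these are shares of sorted cells.

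The score was at least 20 in the chosen cells by the rule, and nearly all other cells lay far below that. Its median in the chosen cells was 49.0 in iBC-derived, 39.7 in iBC-recipient endogenous, 48.6 in primary BC-derived and 51.7 in primary BC-recipient endogenous cells, and 0 in the remaining cells of each library. A score under 2 was found in 98.6, 94.0, 98.7 and 97.2% of the remaining cells in the same order. Cells near the threshold were few except in the endogenous cells of the iBC recipient, where 31 cells scored 20 to 25 and 32 scored 15 to 20. The combined level of Tppp3 and Dnah5, which the rule did not use, had a median of 30.5 per 10,000 UMIs in the cells just inside and 22.6 in those just outside.

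**Figure D1:**
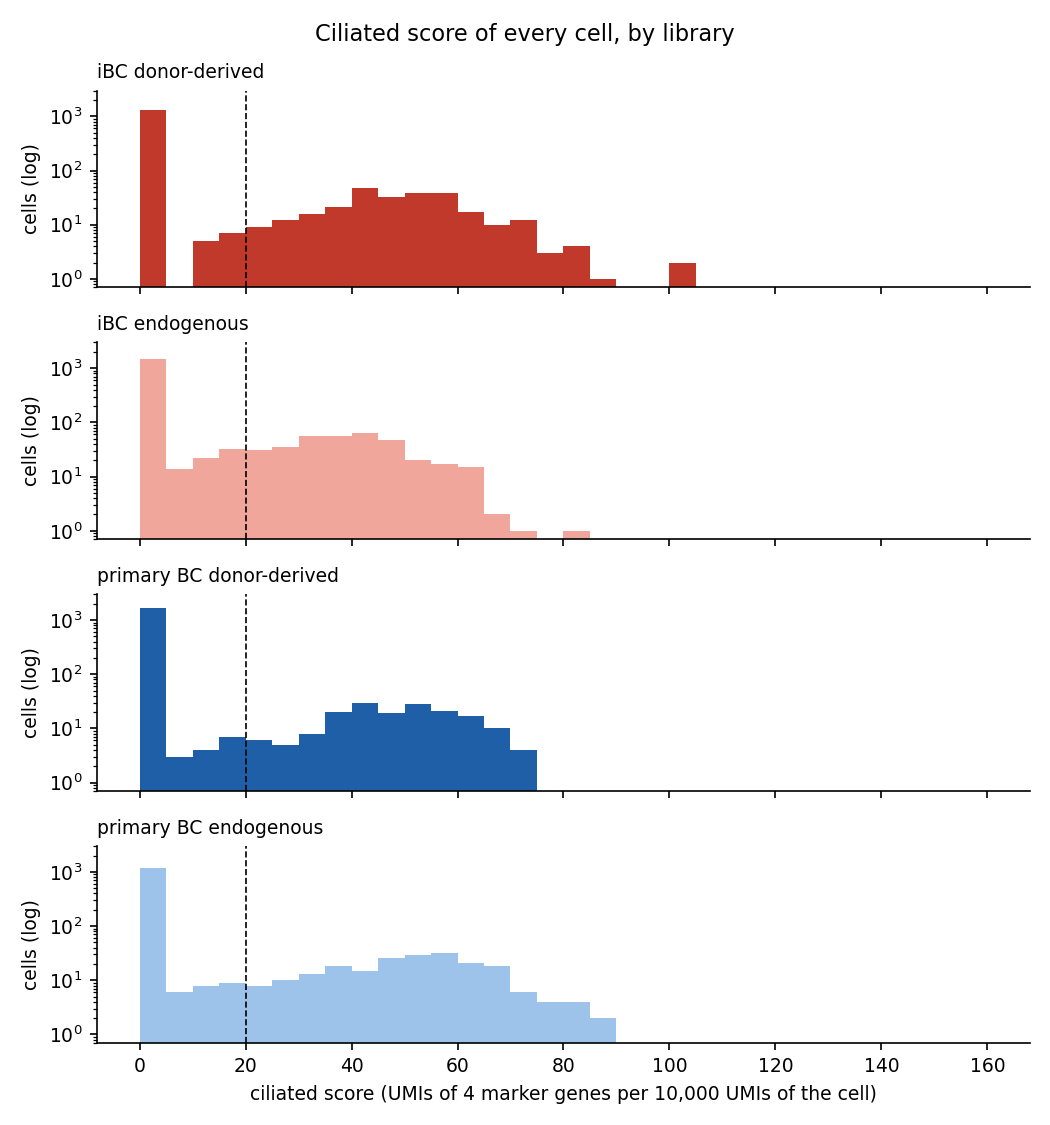
Number of cells (log axis) by ciliated score, the UMIs of the 4 rule genes per 10,000 UMIs of the cell, in bins of 5. Each library has a panel, with the donor-derived library above the endogenous library of the same recipient, and the dashed line at 20 marks the rule. Most cells lie in the lowest bin and a separate group spreads over scores above 20, with the fullest bins around the threshold in the endogenous cells of the iBC recipient.

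Some chosen cells also carried secretory RNA. Cells in which Scgb1a1, Scgb3a1, Scgb3a2 and Bpifa1 together reached 500 per 10,000 UMIs numbered 13 iBC-derived, 8 iBC-recipient endogenous, 7 primary BC-derived and 6 primary BC-recipient endogenous cells. Scrublet, a doublet caller, marked 2, 3, 2 and 1 of them in that order, and whether the rest are doublets was not tested. Leaving them out kept 948 cells. They held 64284 of 68720 Scgb1a1 UMIs in iBC-derived cells and 28379 of 31870 in the endogenous cells of that recipient. Calls lost without them are named beside the gene, and 711 of the 760 genes called higher and 605 of the 644 called lower in iBC-derived cells kept their call. In primary BC-derived cells 89 of 115 and 74 of 91 did.

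Median depth was 11862 UMIs in iBC-derived and 12146 in iBC-recipient endogenous ciliated cells, and 17348 in primary BC-derived and 19231 in primary BC-recipient endogenous ones. Counts were summed over the ciliated cells of a library and given as CPM (UMIs of a gene per 1000000 UMIs of the sum), from sums of 3144927 to 4371019 UMIs. EGFP, the sort marker, stood at 78.2 CPM in iBC-derived against 0.458 CPM in iBC-recipient endogenous cells, and at 1386 CPM in primary BC-derived against 0.231 CPM in primary BC-recipient endogenous cells. A UMI of EGFP was present in 50.8% of iBC-derived and 100% of primary BC-derived ciliated cells, so its level differed between the grafts. No cell barcode of a ciliated cell was shared between libraries.

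Genes beyond the 4 of the rule were also high in the chosen cells of every library. Besides the rule genes, the genes that most exceeded the other cells of their own library in all 4 libraries were Cfap126, Rsph1, Calml4, Efcab10, Tmem212, Arhgdig and Mlf1. Rsph1, a protein of the radial spoke head, had 946 CPM in iBC-derived, 820 CPM in iBC-recipient endogenous, 1103 CPM in primary BC-derived and 1151 CPM in primary BC-recipient endogenous ciliated cells, against 8.83, 17.3, 7.58 and 14.3 CPM in the other cells of those libraries. In all, 244 genes had at least 100 CPM and 8-fold more than the other cells in each of the 4 libraries. They are the genes the cells were in effect chosen on and are not tested.

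Markers of other cell types were present to different degrees. Secretory markers of the ciliated cells summed to 31939 CPM in iBC-derived and 33281 CPM in iBC-recipient endogenous cells. The sums were 39519 CPM in primary BC-derived and 32881 CPM in primary BC-recipient endogenous cells. These were between 13.5 and 32.5% of the level in the other cells. Without the secretory-rich cells the sums were 11979, 24813, 30827 and 26786 CPM in the same order. Hillock markers stood at 104 to 156%, ionocyte markers at 70.1 to 180% with 1 gene at 20 CPM in each library, and alveolar markers at 48.8 to 193% of the other cells. Their part in the results was not tested. Of the 10 hillock markers, 4 or 5 had at least 20 CPM in each library, and the keratins Krt13 and Krt4 did not. Krt13 had at most 1.85 CPM in ciliated cells of any library, against 8.08 to 110 CPM in the other cells. Krt4 had at most 11.4 CPM, against 33.4 to 225 CPM. Basal markers summed to 120 CPM in iBC-derived, 103 CPM in iBC-recipient endogenous, 345 CPM in primary BC-derived and 64.9 CPM in primary BC-recipient endogenous ciliated cells, between 0.975 and 3.74% of the level in the other cells. Krt15, a basal keratin, accounted for most of the difference, with 191 CPM in primary BC-derived and 31.4 CPM in primary BC-recipient endogenous cells. At 5000 UMIs a cell, the 10% of primary BC-derived ciliated cells richest in Krt15 held 95.6% of its UMIs. Tuft, neuroendocrine, fibroblast and endothelial lists had no gene at 20 CPM in any library.

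Donor-derived and endogenous ciliated cells were then compared within each recipient. A gene was measured where it had at least 20 CPM in either sum, and was called higher or lower where it differed by at least 1.5-fold with an exact 95% interval of the ratio that excluded 1. In the iBC recipient 10.7% of 7132 measured genes were higher and 9.03% lower in iBC-derived cells, 760 and 644 genes, and with TMM scaling (trimmed mean of M values) 566 and 775. In the primary BC recipient 1.66% of 6924 were higher and 1.31% lower in primary BC-derived cells. At least 4-fold differences numbered 90 higher and 156 lower genes in iBC-derived cells, against 13 and 1 in primary BC-derived cells. The median log2 ratio over all measured genes was 0.09 for the iBC graft and -0.03 for the primary BC graft.

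Most ciliary genes had no call in the iBC graft, and a small set was at least 4-fold lower. Over 12 lists of ciliary genes, 260 of 318 listed genes were measured in the iBC recipient. Of these 35 were higher and 30 were lower in iBC-derived cells and 195 had no call, with a median log2 ratio of 0.17. With TMM scaling 21 were higher and 32 lower, with a median of 0.08. The shares called were not far from the 10.7% and 9.03% over all genes, which are also the background for the iBC counts of each list below. Of the 30 lower genes 15 were at least 4-fold lower, against 156 of the 644 lower over all measured genes. Those 15 had 0.286 to 14.3 CPM in iBC-derived cells and 30.4 to 332 CPM in iBC-recipient endogenous cells, lay on 10 chromosomes, and none was called in the primary BC recipient. In the primary BC recipient 0 of 265 measured ciliary genes were higher, 6 were lower and 259 had no call, with a median of -0.08, and with TMM scaling 2 were higher. Over all genes there 1.66% were higher and 1.31% lower, the background for the primary BC counts of each list. With so few called over all genes, a list of few genes with none called says little. Without the secretory-rich cells the counts in iBC-derived cells were 45 higher and 27 lower, and in primary BC-derived cells 1 higher and 5 lower.

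**Figure D2:**
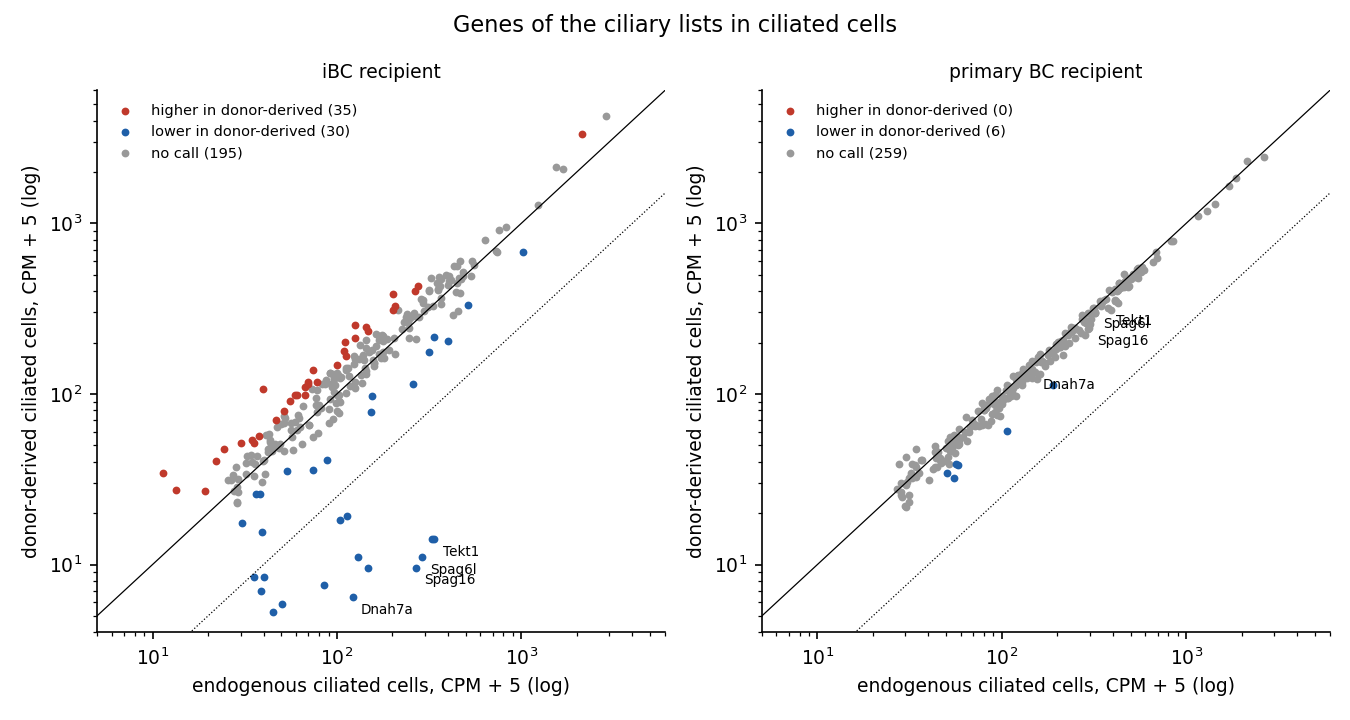
Level of each measured gene of the 12 ciliary lists in donor-derived (vertical) against endogenous (horizontal) ciliated cells, in CPM plus 5 on log axes, for the iBC recipient (left) and the primary BC recipient (right). The solid line marks equal levels and the dotted line a 4-fold lower level in donor-derived cells. In the iBC recipient the 15 genes that are at least 4-fold lower by CPM lie far below the diagonal, among them Spag16, Spag6l, Tekt1 and Dnah7a, while in the primary BC recipient the points follow the diagonal.

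The central apparatus, the pair of microtubules and projections at the core of the axoneme, had 2 components close to 0 in iBC-derived cells. Spag16 had 4.57 CPM in iBC-derived against 262 CPM in iBC-recipient endogenous cells, and 237 CPM in primary BC-derived against 292 CPM in primary BC-recipient endogenous cells. It was 57.3-fold lower in iBC-derived cells (35.1 to 101). Spag6l, another central apparatus protein, had 6.00 CPM in iBC-derived against 283 CPM in iBC-recipient endogenous cells, and 298 against 316 CPM in the primary BC-derived and endogenous cells. Of 22 measured genes of the list, 6 were lower and 0 higher. Hydin, a large central pair protein, stood at 484 CPM in iBC-derived and 527 CPM in iBC-recipient endogenous cells, with no call.

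Among tektins and microtubule inner proteins, which stabilise the doublets, 6 of 30 were lower and 3 higher, with 1 higher under TMM scaling and 5 without the secretory-rich cells. Tekt1 had 9.14 CPM in iBC-derived against 332 CPM in iBC-recipient endogenous cells, and 314 CPM in primary BC-derived against 372 CPM in primary BC-recipient endogenous cells. It was thus 36.4-fold lower in iBC-derived cells (25.6 to 53.4). Tekt2 was 3.25-fold lower, whereas Tekt4 had 318 CPM in iBC-derived and 305 CPM in iBC-recipient endogenous cells and no call. Spag8, Ccdc81 and Efcab6 were the other members at least 4-fold lower.

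The nexin-dynein regulatory complex limits sliding between doublets. Drc1, a core subunit, had 9.14 CPM in iBC-derived against 324 CPM in iBC-recipient endogenous cells, and 249 CPM in primary BC-derived against 292 CPM in primary BC-recipient endogenous cells. It was 35.4-fold lower in iBC-derived cells, on 32 against 1415 UMIs. Of the 13 measured genes of this complex 2 were lower and 2 higher, with 1 higher under TMM scaling and 5 without the secretory-rich cells, the second lower one being Ccdc39 at 170 CPM in iBC-derived and 310 CPM in iBC-recipient endogenous cells.

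The inner dynein arms, which set the bend of the cilium, had 4 of 16 genes lower and 0 higher, all 4 being heavy chains at least 4-fold lower. Dnah10 had 4.57 CPM in iBC-derived against 143 CPM in iBC-recipient endogenous cells, and 206 CPM in primary BC-derived against 243 CPM in primary BC-recipient endogenous cells. Dnah7a had 1.43 CPM in iBC-derived against 117 CPM in iBC-recipient endogenous cells, and Dnah7b and Dnah7c were likewise lower. The Dnah7 genes are close copies on chromosome 1, so reads could be split between them by the authors' counting and each one's value is uncertain.

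The outer dynein arms, the main motors of the beat, had no gene that was 4-fold lower. Of 18 measured genes 3 were higher and 1 was lower, the lower one being the rule gene Dynlrb2, whose call was lost without the secretory-rich cells. Dnah5, an outer arm heavy chain, had 1271 CPM in iBC-derived and 1224 CPM in iBC-recipient endogenous cells, against 1176 CPM in primary BC-derived and 1294 CPM in primary BC-recipient endogenous cells. Dnah9, the heavy chain of the distal cilium, had 386 CPM in iBC-derived and 460 CPM in iBC-recipient endogenous cells. Neither gene was called in either recipient. With TMM scaling the median log2 ratio of the outer arm list turned to -0.05, against 0.03, and that of the tektin list to -0.04, against 0.04.

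Radial spokes had 3 of 18 genes higher and 1 lower, and the listed dynein arm assembly factors 4 of 18 higher and 0 lower. Daw1, a factor of dynein arm delivery outside the ciliary lists, was lower in iBC-derived cells. Intraflagellar transport and cilium motors had 3 of 34 genes higher and 2 lower. In the BBSome and transition zone list, whose proteins gate the base of the cilium, 7 of 30 were higher and 1 lower, with 4 higher under TMM scaling and 10 without the secretory-rich cells. Arl13b, a small GTPase of the ciliary membrane, had 209 CPM in iBC-derived and 120 CPM in iBC-recipient endogenous cells. Among tubulins and enzymes that modify them 4 of 19 were lower and 1 higher, and Ttll3 and Ttll9, ligases that add amino acids to tubulin, were at least 4-fold lower. Tubb4b, a beta-tubulin of cilia, was the higher one, with 3344 CPM in iBC-derived and 2134 CPM in iBC-recipient endogenous cells, and had no call with TMM scaling.

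Single cells gave the same picture at equal depth. With every cell thinned to 5000 UMIs (260 of 264 iBC-derived and 338 of 345 iBC-recipient endogenous cells were deep enough), Spag16 had a UMI in 4 iBC-derived cells, or 1.54%, and in 236 iBC-recipient endogenous cells, or 69.8%. Tekt1 had a UMI in 1.92% of iBC-derived and 79.6% of iBC-recipient endogenous cells. The shares in the other cells of these libraries were 0.0779 and 2.33% for Spag16, and 0.0779 and 2.12% for Tekt1. Dnah5 was found in 98.8% of iBC-derived and 99.1% of iBC-recipient endogenous ciliated cells. Of the 16 Spag16 UMIs in iBC-derived ciliated cells 7 came from the 13 secretory-rich cells, and of the 32 Tekt1 UMIs 14 did.

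**Figure D3:**
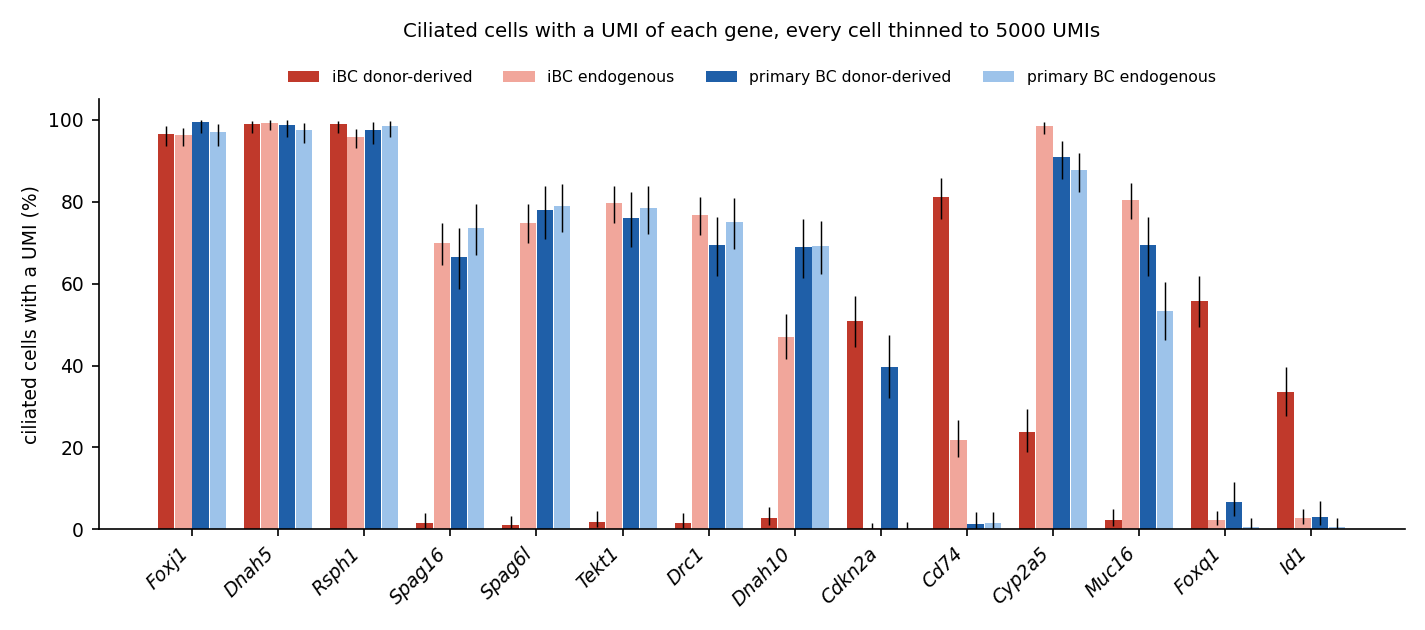
Percentage of ciliated cells with at least 1 UMI of each gene after thinning every cell to 5000 UMIs, for the 4 libraries in the order of the legend. Bars start at 0 and error lines are exact 95% binomial intervals of counting error. Foxj1, Dnah5 and Rsph1 are found in over 95% of ciliated cells of each library, Foxj1 being a gene by which the cells were chosen. Spag16, Spag6l, Tekt1, Drc1 and Dnah10 are found in under 3% of iBC-derived ciliated cells.

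Factors that drive multiciliation were mixed. Foxj1 is a rule gene, so its level in the chosen cells was in part set by the rule. It had 673 CPM in iBC-derived, 729 CPM in iBC-recipient endogenous, 781 CPM in primary BC-derived and 839 CPM in primary BC-recipient endogenous cells. Rfx3, an X-box binding factor, had 93.1, 97.9, 104 and 109 CPM in that order, and neither gene was called. Myb, which acts early in multiciliation, was higher in iBC-derived cells at 241 CPM against 139 CPM in iBC-recipient endogenous cells. Gmnc, which starts the multiciliation programme, was lower at 3.43 CPM against 35.0 CPM.

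The promoters of the strongly lower genes are shown because their windows share letters. The X-box is the binding site of RFX factors and is made of a pair of inverted half-sites, GTTGCC then GGCAAC, of which single ones were searched here. The half-site was searched as GTTGCC on both strands (GGCAAC on the other), in RefSeq windows of build GRCm38.p6 from 250 bases before to 50 after a gene's start. It was present in 11 of the 12 strongly lower ciliary genes with a window, 79 of the 198 other measured ciliary genes (39.9%), and 3821 of 27025 genes in the table (14.1%). The 12 genes were chosen on their values, so no test is given. A forkhead motif, GTAAACA on both strands, was found in 0 of the 12, in 10 of the 198 (5.05%) and in 4.05% of all genes. The median number of CG pairs in the window was 12 for the 12 genes, 16 for the other ciliary genes and 7 for all genes.

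Half-sites are in capitals in the 4 windows of strongly lower genes that follow, and in that of Tekt4, which had no call and also holds a half-site. Dnah5, which had no call, holds none. All run 5′ to 3′ on the strand of the gene. Tekt1 has a second window without the half-site that is not printed.
Spag16 (chr1:69826720-69827019, plus strand): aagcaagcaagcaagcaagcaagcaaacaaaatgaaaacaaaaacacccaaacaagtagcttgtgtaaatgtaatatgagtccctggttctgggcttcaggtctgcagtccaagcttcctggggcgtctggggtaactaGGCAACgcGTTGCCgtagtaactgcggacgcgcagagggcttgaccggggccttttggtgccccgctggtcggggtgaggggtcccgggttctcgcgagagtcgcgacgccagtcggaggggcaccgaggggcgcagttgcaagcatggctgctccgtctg
Tekt1 (chr11:72361833-72362132, minus strand): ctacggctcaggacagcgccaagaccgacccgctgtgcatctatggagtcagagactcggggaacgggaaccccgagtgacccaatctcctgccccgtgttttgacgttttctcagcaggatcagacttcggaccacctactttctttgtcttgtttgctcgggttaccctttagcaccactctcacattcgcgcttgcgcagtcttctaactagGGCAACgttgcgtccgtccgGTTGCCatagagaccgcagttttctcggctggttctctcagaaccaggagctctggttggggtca
Drc1 (chr5:30281143-30281442, plus strand): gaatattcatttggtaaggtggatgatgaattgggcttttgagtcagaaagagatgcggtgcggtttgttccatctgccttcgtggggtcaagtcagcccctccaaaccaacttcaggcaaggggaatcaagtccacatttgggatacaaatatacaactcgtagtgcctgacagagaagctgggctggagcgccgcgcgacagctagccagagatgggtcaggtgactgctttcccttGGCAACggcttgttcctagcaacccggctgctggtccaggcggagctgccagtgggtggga
Spag6l (chr16:16829314-16829613, minus strand): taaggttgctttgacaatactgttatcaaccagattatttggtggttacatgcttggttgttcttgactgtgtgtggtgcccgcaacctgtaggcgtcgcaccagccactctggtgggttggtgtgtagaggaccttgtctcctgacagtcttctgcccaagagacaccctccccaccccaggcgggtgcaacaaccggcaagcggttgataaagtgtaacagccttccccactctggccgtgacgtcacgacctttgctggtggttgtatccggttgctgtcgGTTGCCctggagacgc
Tekt4 (chr17:25471340-25471639, plus strand): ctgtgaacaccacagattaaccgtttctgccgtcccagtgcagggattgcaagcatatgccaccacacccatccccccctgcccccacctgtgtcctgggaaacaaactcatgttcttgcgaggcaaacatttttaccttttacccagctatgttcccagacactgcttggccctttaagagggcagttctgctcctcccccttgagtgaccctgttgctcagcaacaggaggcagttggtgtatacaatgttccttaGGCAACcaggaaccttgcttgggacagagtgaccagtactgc
Dnah5 (chr15:28203516-28203815, plus strand): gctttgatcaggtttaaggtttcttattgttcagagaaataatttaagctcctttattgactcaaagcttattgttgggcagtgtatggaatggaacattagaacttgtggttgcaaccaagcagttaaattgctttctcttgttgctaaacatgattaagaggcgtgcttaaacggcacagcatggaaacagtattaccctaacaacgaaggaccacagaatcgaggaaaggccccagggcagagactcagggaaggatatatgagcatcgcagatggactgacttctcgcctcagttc
A match of letters is no evidence of binding. In Spag16 and Tekt1 the window holds the half-site once on each strand, in the order GGCAAC then GTTGCC.

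The set looked different when it was not taken from ciliary lists. In the 3 libraries other than the iBC-derived one, 365 genes had at least 20 CPM and at least 8-fold the level of the other cells. That 8-fold was taken after adding 5 CPM to both levels, which leaves out some genes of low level. Of the 365, 265 were within 1.5-fold between iBC-derived and iBC-recipient endogenous cells, and 27 were at least 4-fold lower in iBC-derived cells. The rule asked for a high level in iBC-recipient endogenous cells and not in iBC-derived cells, so it favours genes lower in the latter. Over all genes 156 of 7132 measured were at least 4-fold lower. The rule also asked for a high level in both primary BC libraries, so the primary BC recipient is not set against this count. Among the 27, the half-site was in 12 of the 22 with a window (54.5%), against 98 of the 267 others of the 365 (36.7%). It was in 3 of the 13 of the 27 that were on no ciliary list (23.1%). Odf3b, which is named after an outer dense fiber protein of sperm tails, had 2.57 CPM in iBC-derived against 189 CPM in iBC-recipient endogenous cells.

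Outside the cilium, the neighbouring cell cycle inhibitor genes Cdkn2a and Cdkn2b were higher in both grafts. Cdkn2a, which encodes the inhibitors p16Ink4a and p19Arf, had 131 CPM in iBC-derived against 1.37 CPM in iBC-recipient endogenous cells, and 91.9 CPM in primary BC-derived against 0.231 CPM in primary BC-recipient endogenous cells. It was the gene with the largest log2 ratio among those named in either comparison, 95.7-fold higher (43.6 to 262) in iBC-derived and 398-fold higher (70.9 to 15771) in primary BC-derived cells, whose endogenous sum held 1 UMI. Cdkn2b, its neighbour encoding p15Ink4b, had 71.7 against 13.3 CPM in the iBC-derived and iBC-recipient endogenous cells, and 42.0 against 13.2 CPM in the primary BC-derived and endogenous cells. Phlda3, a p53 target, was also higher in both, at 66.5 against 23.8 CPM and 26.1 against 15.2 CPM in the same order. At 5000 UMIs a cell Cdkn2a had a UMI in 50.8% of iBC-derived and 0.296% of iBC-recipient endogenous ciliated cells, and in 39.5% of primary BC-derived and 0 of 204 primary BC-recipient endogenous ones, which allows up to 1.47%. The shares in the other cells of the same libraries were 31.4, 0.0705, 8.34 and 0.0831%.

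Cdkn1c, an imprinted inhibitor encoding p57Kip2, went the other way in the iBC graft, with 0.857 CPM in iBC-derived against 42.1 CPM in iBC-recipient endogenous cells, and 41.7 CPM in primary BC-derived against 59.1 CPM in primary BC-recipient endogenous cells. Of 12 measured genes in the list of cell cycle inhibitors and DNA damage genes, 5 were higher and 2 lower in iBC-derived cells, and 4 were higher and 0 lower in primary BC-derived cells. Without the secretory-rich cells these were 4 and 2, and 3 and 1, and with TMM scaling the iBC counts were 3 and 2.

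MHC class II genes, whose products present peptides to helper T cells, were all higher in iBC-derived ciliated cells, 6 of 6 measured, with a median log2 ratio of 2.49. Cd74, the invariant chain, had 1627 CPM in iBC-derived against 229 CPM in iBC-recipient endogenous cells, and 2.23 CPM in primary BC-derived against 3.46 CPM in primary BC-recipient endogenous cells. H2-Eb1 had 348 CPM in iBC-derived against 41.9 CPM in iBC-recipient endogenous cells, an 8.31-fold difference (7.11 to 9.77). At equal depth, 5000 UMIs a cell, Cd74 was detected in 81.2% of iBC-derived, 21.9% of iBC-recipient endogenous, 1.20% of primary BC-derived and 1.47% of primary BC-recipient endogenous ciliated cells. Other cells of the iBC recipient carried it too, 83.7% of donor-derived and 34.5% of endogenous ones. In the primary BC recipient no gene of the list reached 20 CPM in ciliated cells. The immune marker list was represented only by Lyz2 at 20 CPM or more, at 153 CPM in iBC-derived and 4359 CPM in iBC-recipient endogenous cells.

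MHC class I and its peptide supply followed, with 11 of 16 measured genes higher, 0 lower and a median log2 ratio of 0.70 in iBC-derived cells. H2-K1 had 4774 CPM in iBC-derived and 2160.1 CPM in iBC-recipient endogenous cells, against 1256 CPM in primary BC-derived and 1246 CPM in primary BC-recipient endogenous cells. B2m, the shared light chain, had 2297 CPM in iBC-derived and 964 CPM in iBC-recipient endogenous cells. In primary BC-derived cells 0 of 13 measured genes were called, where 1.66% were higher and 1.31% lower over all genes. Of 27 interferon-stimulated genes 7 were higher and 3 lower in iBC-derived cells, with a median of 0.10, and Ifit3 and Iigp1 were uneven among those cells, the richest 10% of cells holding 85.2 and 81.7% of their UMIs at equal depth.

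Of 36 measured genes on the list of detoxification and aldehyde metabolism, 16 were lower, 1 higher and 19 not called in iBC-derived ciliated cells. Their median log2 ratio was -0.40, and over all measured genes 9.03% were lower. Cyp2a5, a cytochrome P450, had 272 CPM in iBC-derived against 6168 CPM in iBC-recipient endogenous cells, and 2798 CPM in primary BC-derived against 2259 CPM in primary BC-recipient endogenous cells. Its share of cells at 5000 UMIs was 23.8% in iBC-derived and 98.5% in iBC-recipient endogenous ciliated cells, and in iBC-derived cells the richest 10% held 88.7% of its UMIs. In the other cells of the iBC recipient 5.30% of donor-derived and 49.0% of endogenous ones had a UMI of Cyp2a5, with 68.2 against 1694 CPM. Sult1d1, a sulfotransferase, had 43.7 against 798 CPM, Gsta3, a glutathione transferase, 65.4 against 377 CPM, and Nqo1, a quinone reductase, 3.14 against 62.2 CPM in the iBC-derived and iBC-recipient endogenous cells. In primary BC-derived cells 4 of 36 were higher and 0 lower, Adh7 being higher in both grafts. Aox1, an aldehyde oxidase, and Mgst1, a glutathione transferase, were also higher in both grafts, so the list does not cover every such enzyme.

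Secreted defence proteins moved both ways. Of 15 measured acute phase and antimicrobial genes 7 were lower and 5 higher in iBC-derived cells. Reg3g, an antimicrobial lectin, had 110 CPM in iBC-derived against 5959 CPM in iBC-recipient endogenous cells, and 16885 CPM in primary BC-derived against 14043 CPM in primary BC-recipient endogenous cells. In the iBC-derived cells 366 of its 385 UMIs came from the secretory-rich cells, and without those it had 6.23 CPM in iBC-derived against 6169 CPM in iBC-recipient endogenous cells. C3, the central complement protein, had 70.8 against 16.9 CPM, and Orm1, an acute phase protein, 334 against 70.2 CPM in iBC-derived and iBC-recipient endogenous cells. In primary BC-derived cells 4 of 15 were higher and 1 lower. Of these Lyz2 was still called higher without the secretory-rich cells, while Bpifa1, Ltf, Orm1 and Tff2 were not called.

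Apical surface genes moved both ways in the iBC graft. Muc16, a large mucin of the apical surface, had 16.8 CPM in iBC-derived against 677 CPM in iBC-recipient endogenous cells, and 394 CPM in primary BC-derived against 254 CPM in primary BC-recipient endogenous cells. Muc4, another membrane mucin, had 59.7 against 370 CPM in iBC-derived and iBC-recipient endogenous cells, while Muc1 had 42.3 against 33.4 CPM and no call. Prom1, found on membrane protrusions, was lower as well. Sntn, which encodes a protein of the ciliary tip, was higher at 860 CPM in iBC-derived against 514 CPM in iBC-recipient endogenous cells. Of the 21 measured apical surface and polarity genes 5 were higher and 3 lower, and 3 and 4 with TMM scaling.

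Transcription factors tied to position along the airway and foregut differed in 9 of 18 measured genes in the iBC recipient. Foxq1, a forkhead factor, had 204 CPM in iBC-derived against 8.24 CPM in iBC-recipient endogenous cells, and 9.54 CPM in primary BC-derived against 4.16 CPM in primary BC-recipient endogenous cells. Gata6, a factor of the lung endoderm, had 72.0 against 5.26 CPM, and Meis2, a homeobox factor, 202 against 67.7 CPM in iBC-derived and iBC-recipient endogenous cells. In the other cells of the iBC recipient Foxq1 had 289 CPM in donor-derived against 34.2 CPM in endogenous ones. Tbx1, Irx2, Irx3, Irx5 and Pax9 were lower in iBC-derived ciliated cells. Irx3 had 16.8 CPM in iBC-derived against 84.0 CPM in iBC-recipient endogenous cells, and 107 CPM in primary BC-derived against 157 CPM in primary BC-recipient endogenous cells. In primary BC-derived cells 3 of 20 were higher and 1 lower, and 1 and 0 without the secretory-rich cells.

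Inhibitors of differentiation that respond to bone morphogenetic protein (BMP) were higher in iBC-derived cells. Id1 had 212 CPM in iBC-derived against 16.5 CPM in iBC-recipient endogenous cells, and 10.2 CPM in primary BC-derived against 2.08 CPM in primary BC-recipient endogenous cells. Id3 had 104 against 5.49 CPM and Id2 75.1 against 29.3 CPM in iBC-derived and iBC-recipient endogenous cells, whereas Id4 was lower, with 84 against 283 UMIs. Of 8 measured BMP and TGF-beta targets 4 were higher and 1 lower. The other cells of the iBC recipient had 236 CPM of Id1 in donor-derived against 64.2 CPM in endogenous ones, and 26.7 against 4.99 CPM of Id3.

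**Figure D4:**
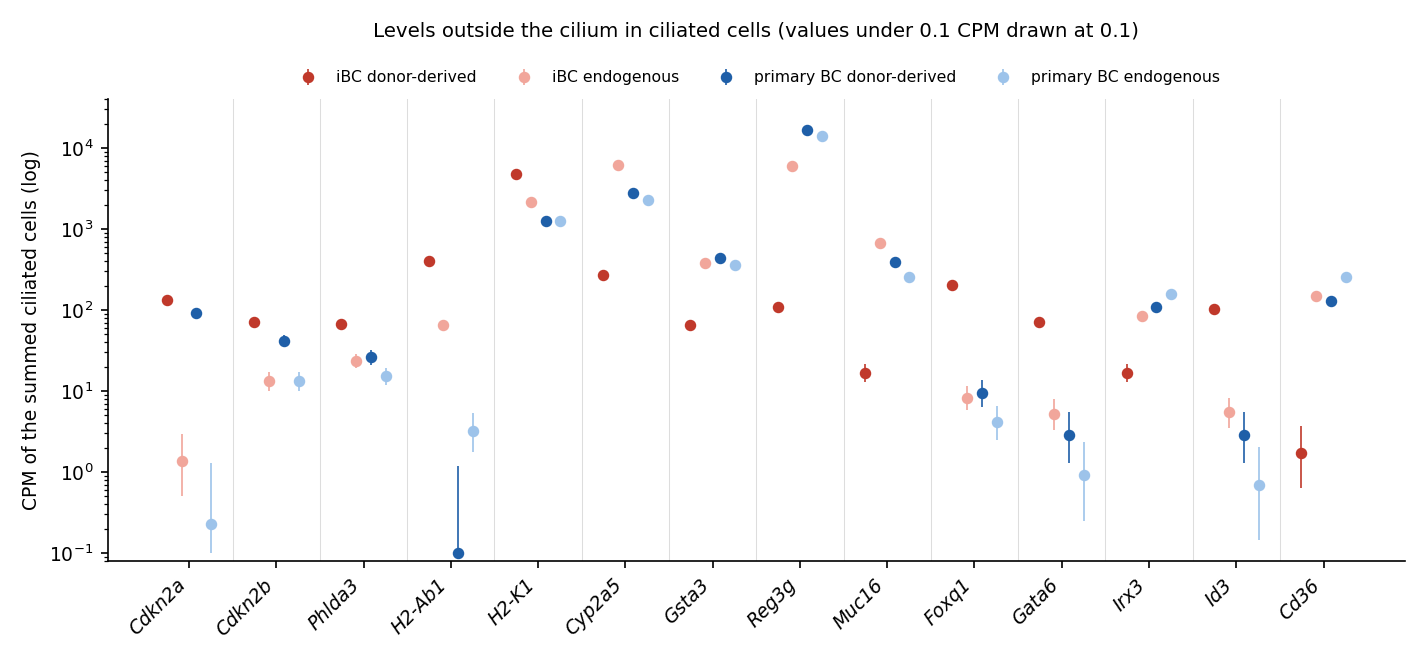
CPM (log axis) of 14 genes outside the cilium in the summed ciliated cells of the 4 libraries, with exact 95% Poisson intervals of counting error. Values under 0.1 CPM are drawn at 0.1. Cdkn2a and Cdkn2b are higher in both donor-derived libraries than in the endogenous library of the same recipient, while Foxq1, Gata6 and Id3 are highest and Cyp2a5, Reg3g and Muc16 lowest in iBC-derived cells.

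Energy genes split by genome. Of 13 mitochondrially encoded messages 6 were lower and 0 higher in iBC-derived cells, with a median log2 ratio of -0.55, and the median share of mitochondrial UMIs per cell was 5.45% in iBC-derived against 7.96% in iBC-recipient endogenous ciliated cells. Of 52 measured nuclear genes of oxidative phosphorylation 2 were higher and 0 lower, with a median of 0.10, and none was called with TMM scaling. None of either list was called in the primary BC recipient. The mitochondrial share also reflects RNA quality, whose part in the result was not tested. Ldhb, a lactate dehydrogenase subunit, was higher at 327 CPM in iBC-derived against 92.4 CPM in iBC-recipient endogenous cells, and Hk2, a hexokinase, was lower at 9.71 against 42.3 CPM.

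Genes with parent-of-origin expression differed in 8 of 12 measured members in the iBC recipient, 5 higher and 3 lower. Igf2r, a lysosomal sorting receptor, had 3.43 CPM in iBC-derived against 71.8 CPM in iBC-recipient endogenous cells, and 61.4 CPM in primary BC-derived against 64.9 CPM in primary BC-recipient endogenous cells. Kcnq1ot1, a long antisense RNA of the domain that holds Cdkn1c, had 735 CPM in iBC-derived against 239 CPM in iBC-recipient endogenous cells. Whether the counting used strand is not given in the sources used here, so reads from the opposite strand cannot be told apart for it. In primary BC-derived cells 0 of 7 measured members were called, where 1.66% were higher and 1.31% lower over all genes.

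**Figure D5:**
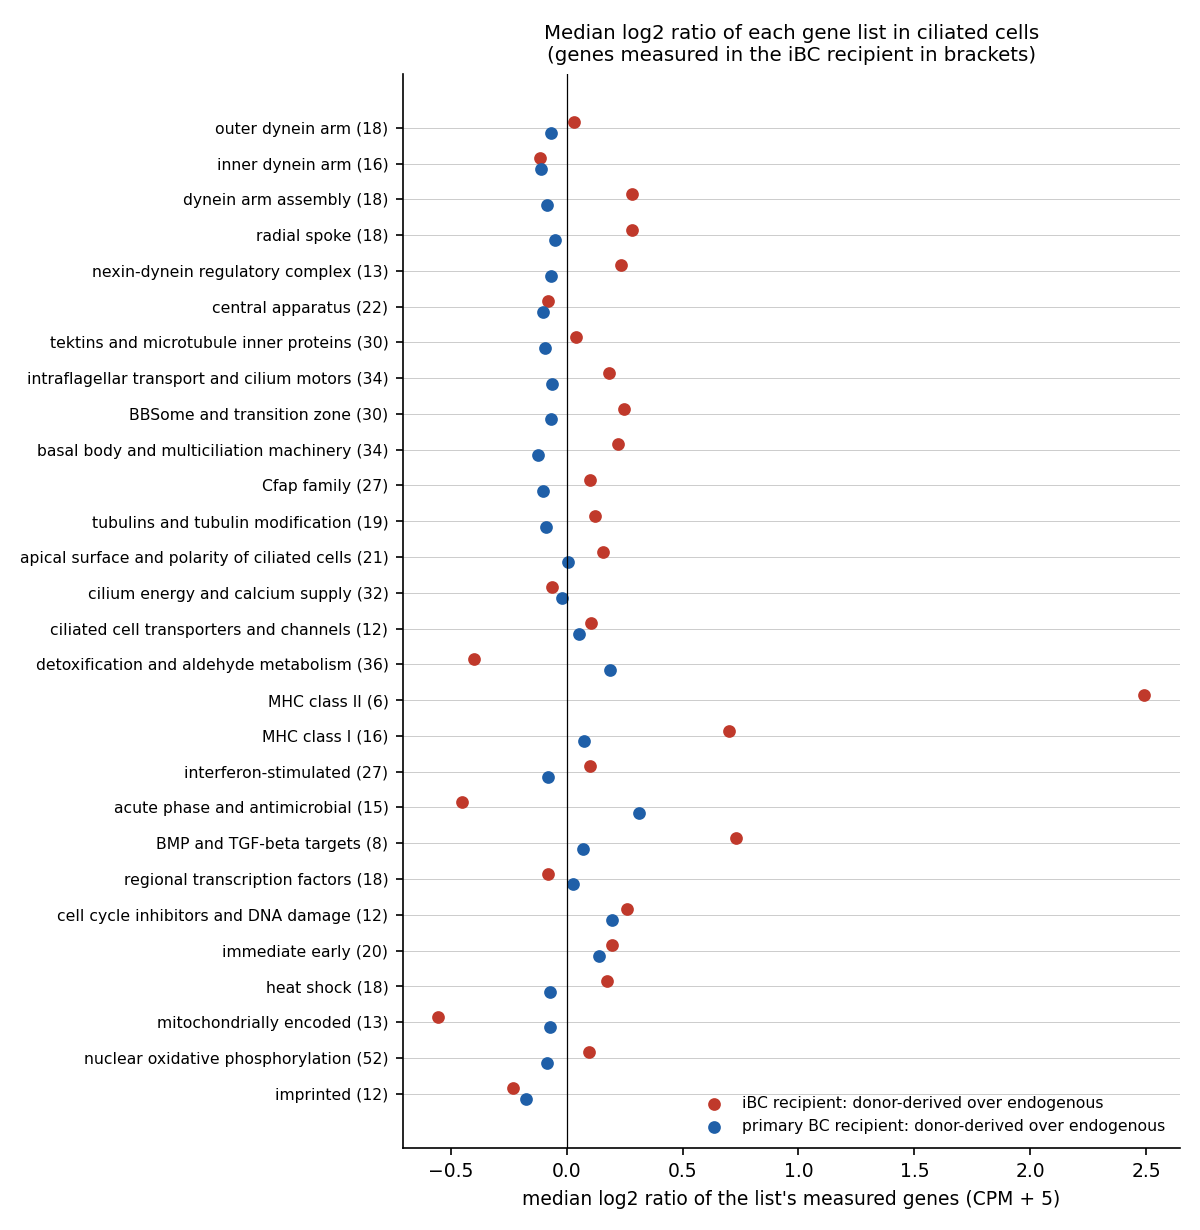
Median log2 ratio of donor-derived over endogenous ciliated cells, from CPM plus 5, for each list with at least 3 measured genes. Red points are the iBC recipient and blue points the primary BC recipient, and the number of genes measured in the iBC recipient is in brackets. Cell type marker lists are not drawn. MHC class II stands highest at 2.49 and mitochondrially encoded genes lowest at -0.55 in the iBC recipient, while the ciliary lists lie between -0.12 and 0.28.

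Several further genes were far apart in the iBC recipient. Slc16a11, a monocarboxylate transporter family member, had 28 UMIs in iBC-derived against 1791 UMIs, or 410 CPM, in iBC-recipient endogenous cells, and 460 CPM in primary BC-derived against 433 CPM in primary BC-recipient endogenous cells. It was also far apart in the other cells of the iBC recipient, with 3.11 CPM in donor-derived against 166 CPM in endogenous ones. Cacna1s, a voltage-gated calcium channel subunit, had 127 CPM in iBC-derived against 2.06 CPM in iBC-recipient endogenous cells, and 27.0 CPM in primary BC-derived against 27.3 CPM in primary BC-recipient endogenous cells. Car2, a carbonic anhydrase, had 85.7 against 4.35 CPM, Sncg, a synuclein, 50.5 against 0.229 CPM, and Olfm4, a secreted glycoprotein, 51.1 against 0.458 CPM in iBC-derived and iBC-recipient endogenous cells. H2-Ob, which modulates MHC class II loading, had 138 against 9.84 CPM. Ly6k, of the Ly6 family, was lower at 1.71 CPM in iBC-derived against 132 CPM in iBC-recipient endogenous cells.

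The primary BC graft differed from its host mainly in a few genes, of which 12 passed the rule for named genes. Calml3, a calmodulin-like protein of epithelia, had 252 CPM in primary BC-derived against 46.9 CPM in primary BC-recipient endogenous cells, 5.39-fold higher (4.61 to 6.31). Ccnd2, a D-type cyclin, had 520 against 233 CPM, and Dhrs9, a retinol dehydrogenase family member, 528 against 263 CPM in primary BC-derived and endogenous cells. Gcnt1, Serpinb12, Pcdh7 and Plac8 were also higher. Unc79, Ctsk and Cd36 were lower. Cd36, a fatty acid receptor, had 128 CPM in primary BC-derived against 259 CPM in primary BC-recipient endogenous cells. It had 1.71 CPM in iBC-derived against 150 CPM in iBC-recipient endogenous cells. In the other cells of those libraries it had 33.3, 101, 2.33 and 153 CPM in the same order.

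The 6 genes of the ciliary lists that were lower in primary BC-derived cells were Ccno, Cep78, Deup1, E2f5, Foxa2 and Plk4. All belong to the list of basal body and multiciliation machinery, of which 39 were measured. Daw1, a factor of dynein arm delivery on none of the ciliary lists, was lower in both grafts. Deup1, which builds the deuterosomes from which centrioles are multiplied, had 108 CPM in primary BC-derived against 185 CPM in primary BC-recipient endogenous cells, and 30.6 CPM in iBC-derived against 48.7 CPM in iBC-recipient endogenous cells. Cep78 and Foxa2 had no call without the secretory-rich cells. Ccno, a cyclin-like protein of the same step, had 56.0 against 102 CPM in the primary BC-derived and endogenous cells. The secretory-rich cells held 81 of its 176 and 203 of its 441 UMIs in that order. Plk4, the kinase that starts centriole duplication, had 27.0 against 50.3 CPM in the same order.

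Cells in the act of making centrioles, here those with at least 5 UMIs of Deup1, Ccno and Cdc20b together, numbered 1 of 264 iBC-derived (0.379%), 2 of 345 iBC-recipient endogenous (0.580%), 6 of 167 primary BC-derived (3.59%, exact interval 1.33 to 7.66%) and 18 of 206 primary BC-recipient endogenous ciliated cells (8.74%, 5.26 to 13.5%). At 5000 UMIs a cell and at least 3 UMIs, they were 2 of 260, 2 of 338, 5 of 167 and 15 of 204. The intervals of the primary BC-derived and endogenous shares overlapped. These counts include the secretory-rich cells. Cdk1, Cdc20, Top2a and Cenpf, cycling markers that the centriole programme also uses, were lower in primary BC-derived cells as well, and the cycling list summed to 123 CPM in them, 228 CPM in primary BC-recipient endogenous, 30.3 CPM in iBC-derived and 31.3 CPM in iBC-recipient endogenous cells.

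Among the 6502 genes measured in both recipients, 523 were higher and 565 lower in iBC-derived cells, and 84 and 49 in primary BC-derived cells. Calls in both recipients coincided for 21 genes higher and 21 lower in donor-derived cells. The higher ones were 4.02% of the 523 higher in the iBC recipient and 21 of the 84 higher in the primary BC recipient, and they included Cdkn2a, Cdkn2b, Phlda3, Adh7 and EGFP itself. Meis2 and Klf4 were among them too, but without the secretory-rich cells neither was called in the primary BC recipient. The lower ones were 3.72% of the 565 lower in the iBC recipient and 42.9% of the 49 lower in the primary BC recipient, and included Cd36, Deup1, Ctsk, Unc79, Ccl28 and Daw1, a factor of dynein arm delivery. Calls went in opposite directions for 26 genes lower in iBC-derived and higher in primary BC-derived cells, or 31.0% of the 84 higher in the latter. Another 11 went the other way round, or 22.4% of the 49 lower in primary BC-derived cells.

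The endogenous ciliated cells of the recipients also differed. Between the endogenous cells of the iBC recipient and those of the primary BC recipient 7.55% of 7055 measured genes were higher and 9.81% lower in the iBC recipient, and of 267 measured ciliary genes 5 were higher and 61 lower, with a median log2 ratio of -0.27. Tmem212, a ciliated cell membrane protein, had 494 CPM in the endogenous cells of the iBC recipient against 1696 CPM in endogenous cells of the primary BC recipient. The endogenous library of each recipient is also the one its donor-derived library is set against, so these values are given side by side and no relation between the comparisons was computed.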

How the data were processed

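Single-cell RNA was measured in 4 sorted tracheal libraries on the 10x Chromium system, per the labels' protocols, and the submitters' processing notes name Cell Ranger, STARsolo, Seurat and build GRCm38. The deposited matrices hold raw UMI counts per gene and barcode, as the authors made them, and the barcode and feature files hold names. Gene IDs were given positions from the GENCODE vM21 annotation (30843 of 30907 features). The members and the gene lists were chosen with earlier results of these data known, and 10 of 896 listed genes were not matched.

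Counts of ciliated cells were summed per library, with CPM over the sum. Log2 ratios used a pseudocount of 5 CPM. Ratio intervals are exact conditional binomial, levels exact Poisson and shares Clopper-Pearson, all 95%. UMIs mark molecules, and the intervals still cover counting error only. Library sums were 21504563 to 26625123 UMIs. A share of 0 is given with the limit of 3 counts. Scrublet in scanpy 1.11.5 (expected rate 5%) marked 22, 56, 11 and 15 barcodes in iBC donor-derived, iBC endogenous, primary BC donor-derived and primary BC endogenous libraries, 22 of them ciliated cells, and these stayed in the sums. The comparison script was checked on simulated counts. With 1 library per group the counts allow no edgeR fit, and edgeR 4.0.16 gave only TMM factors. Named genes were the up to 10 with the largest log2 ratio at each end among those with at least 50 CPM and 50 UMIs in the higher sum, a 2-fold change whose interval excluded 1.5-fold, and a limit on signal from other cells set at 25% of their level. Alternatives were other score and gene minima, members by other ciliated genes, doublet and mitochondrial filters, scalings, pseudocounts, CPM minima and folds. numpy 2.4.6, scipy 1.17.1 and pandas 2.3.3 were used in Python 3.11.15. Some genes are not reported here by name, though they stay in the counts.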

Additional observations from a re-analysis of the deposited data

Results flagged for a closer look

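Among the 6502 genes measured in both recipients, 26 were lower in iBC-derived and higher in primary BC-derived ciliated cells, and 11 the other way round. Of them 11 listed or named genes are given here, and the difference itself was not tested, since each group is 1 library. In iBC-derived cells lower and in primary BC-derived cells higher than the endogenous cells of the same recipient were Muc16, at a log2 ratio of -4.97 for the iBC graft and 0.63 for the primary BC graft, Bpifa1 at -5.66 and 0.60, Lyz2 at -4.79 and 0.89, Ltf at -1.89 and 1.22, Ly6k at -4.35 and 1.38, Calml3 at -3.25 and 2.31, Plac8 at -1.83 and 0.98, Serpinb12 at -1.66 and 1.19, and Ccnd2 at -0.94 and 1.14.

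Without the secretory-rich cells 7 of these 9 genes were still called in opposite directions. Bpifa1 and Ltf were not called in the primary BC recipient, at log2 ratios of -0.06 and 0.27. The opposite pattern, higher in iBC-derived and lower in primary BC-derived cells, was seen for Ccno at 1.59 and -0.81 and for Cep78 at 0.76 and -0.54. Of the 103 Ccno UMIs in iBC-derived ciliated cells 87 came from the 13 secretory-rich cells, and without those Ccno was under 20 CPM in both sums of the iBC recipient. Cep78 had no call in the primary BC recipient without them, at -0.45.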

How the results depend on the processing

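No paired analysis was possible because each group has 1 library, so no replicate could be left out either. The numbers of genes called in ciliated cells depended mostly on the CPM minimum and the fold. With no CPM minimum 1559 genes were higher and 1233 lower in iBC-derived cells, 415 and 344 in primary BC-derived cells, and 1108 and 1536 in the endogenous cells of the iBC recipient set against those of the primary BC recipient. With a minimum of 50 CPM these were 388 and 349, 33 and 22, and 247 and 372. With a fold of 2 they were 270 and 346, 36 and 14, and 206 and 257. A score minimum of 40 gave 140 lower genes in primary BC-derived cells. More genes are tested with no minimum and fewer with 50 CPM, and for the score the cause was not tested.

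The share of ciliated cells moved with the rule. A score minimum of 40 gave 12.9% of iBC-derived, 8.88% of iBC-recipient endogenous, 6.82% of primary BC-derived and 11.0% of primary BC-recipient endogenous cells, so the order of the first pair changed. In iBC-recipient endogenous cells a minimum of 10 gave 21.1%, and choosing the cells by Rsph1, Tmem212, Sntn, Dnah5 and Tppp3 gave 20.9%. Of 1552 list medians under the alternatives 45 turned sign, 44 of them from reported medians within 0.284 of 0. The deuterosomal markers stood at 0.15 with no CPM minimum, against -0.60, in the iBC recipient, and the cause was not tested. Ratios over a sum of few UMIs have wide intervals at this depth.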

Other observations

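The genes that varied most among ciliated cells of 1 library, at 5000 UMIs a cell, were mostly not ciliary. Scgb1a1 led in both libraries of the iBC recipient and Bpifa1 in both of the primary BC recipient. The richest 10% of cells held 90.3% of the Scgb1a1 UMIs of iBC-derived and 83.6% of those of iBC-recipient endogenous ciliated cells, and 93.8% of the Bpifa1 UMIs of primary BC-derived and 87.8% of those of primary BC-recipient endogenous ones. Cd74 was among the 15 most variable genes in both libraries of the iBC recipient, and the richest 10% held 38.0% of its UMIs in iBC-derived and 86.2% in iBC-recipient endogenous ciliated cells. Txnip, a regulator of thioredoxin, was among them in both libraries of the primary BC recipient, where the richest 10% held 48.5% of its UMIs in primary BC-derived and 39.0% in primary BC-recipient endogenous cells.

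A2ml1, an alpha-2-macroglobulin-like protease inhibitor, had 101 CPM in iBC-derived against 1591 CPM in iBC-recipient endogenous ciliated cells, and 2701 CPM in primary BC-derived against 3256 CPM in primary BC-recipient endogenous ones. In the other cells of those libraries it had 1.44, 82.2, 95.2 and 109 CPM in the same order.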
